A study of Solanum commersonii and Solanum tuberosum with 8 samples.

Results

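Leaves of wild-type Solanum commersonii, a wild potato, after 24 h at 2°C are described here. The data are 1 of the 8 columns of a table of log2 ratios from 2-colour microarrays, the column whose sample title names S. commersonii wild type and 24 h of cold. The column held 1 value for each of the 11366 clones on the array, with no missing value, and all 11366 were used. A log2 ratio of 1 is a 2-fold difference, and 0 is no difference. The cold RNA came from wild-type S. commersonii kept at 2°C for 24 h, and the control RNA from wild-type S. commersonii kept at 25°C over the same 24 h. All plants were raised over 3 weeks at 25°C in days of 16 h light and 8 h dark, and the cold was started 8 h after dawn, so that cold and control leaves were taken at the same hour of the day. The light intensity was 50 in the cold and 350 in the warm, in the same unit, so cold and dimmer light cannot be told apart. The other columns serve as context: 2 h and 7 d of cold in S. commersonii, 2 h, 24 h and 7 d of cold in Solanum tuberosum, the cultivated potato, and warm-grown plants of each species with 35S::AtCBF3, a constitutive promoter that drives an Arabidopsis cold regulator. Each was set against warm wild type of its species, kept warm for 2 h for the 2 h columns and for 24 h for the 24 h and 7 d columns. The cold treatments were done in 3 independent experiments. The transgenic plants came from 3 S. commersonii lines and 2 S. tuberosum lines. For the transgenic S. tuberosum sample, 1 label (the genotype) gives S. commersonii and the others give S. tuberosum, which was followed.

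The value of each clone at 24 h was combined from 3 slides by the authors. Single slides were not analysed here, so no clone has an error, no difference was tested, and each result is a size, a rank or a count in 1 column. A clone is called higher or lower when it differed at least 2-fold. A positive ratio was read as higher in the cold, since the labels place the cold RNA in the first channel, but both dyes are listed for each channel and this direction is likely, not settled. With the opposite direction, higher and lower would trade places throughout. The clones carry no gene names here, and the column could therefore not be checked against known cold genes or leaf markers. Several clones can carry the same gene, so clones are not independent of each other, and fewer cells of a type and less RNA per cell cannot be told apart.

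Plants that cold-acclimate change many transcripts when moved to low, non-freezing temperature. In Arabidopsis a fast wave of transcription factors, among them the CBF proteins, is followed by slower cold-regulated genes whose products protect membranes and proteins or alter sugar metabolism, while genes of growth and photosynthesis often decline. S. commersonii is known for its freezing tolerance and its capacity to acclimate, and the cultivated potato is known to lack most of both.

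After 24 h of cold most S. commersonii clones lay close to their warm controls, and the clones that differed were more often higher than lower. The middle 50% of clones lay between -0.19 and 0.21, around a median of 0.0033. At least 2-fold higher were 301 clones (2.65% of all clones), and 141 were at least 2-fold lower (1.24%). The surplus of higher clones was present at every fold examined: 1030 clones were higher and 536 lower at 1.5-fold, 74 and 32 at 3-fold, and 38 and 6 at 4-fold. Higher clones thus made up 65.8% of the changed clones at 1.5-fold and 86.4% at 4-fold.

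The upper tail was the longer one. The highest clone was at 3.50 (11.3-fold), the tenth at 2.74, the fiftieth at 1.82 and the hundredth at 1.45. From the bottom, the corresponding ranks were at -2.18 (4.52-fold lower), -1.93, -1.39 and -1.11. No clone was 8-fold lower, while 5 were 8-fold higher. The values were continuous across the 2-fold limit. The lowest value called higher was 1.004 and the next clone below it was at 0.998. On the other side, the last clone called lower was at -1.001 and its neighbour was at -0.999. Within 0.1 of the limit, 81 clones lay inside and 96 outside on the high side, and 38 inside and 50 outside on the low side, so that the exact counts rest on small differences for many clones.

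**Figure D1:**
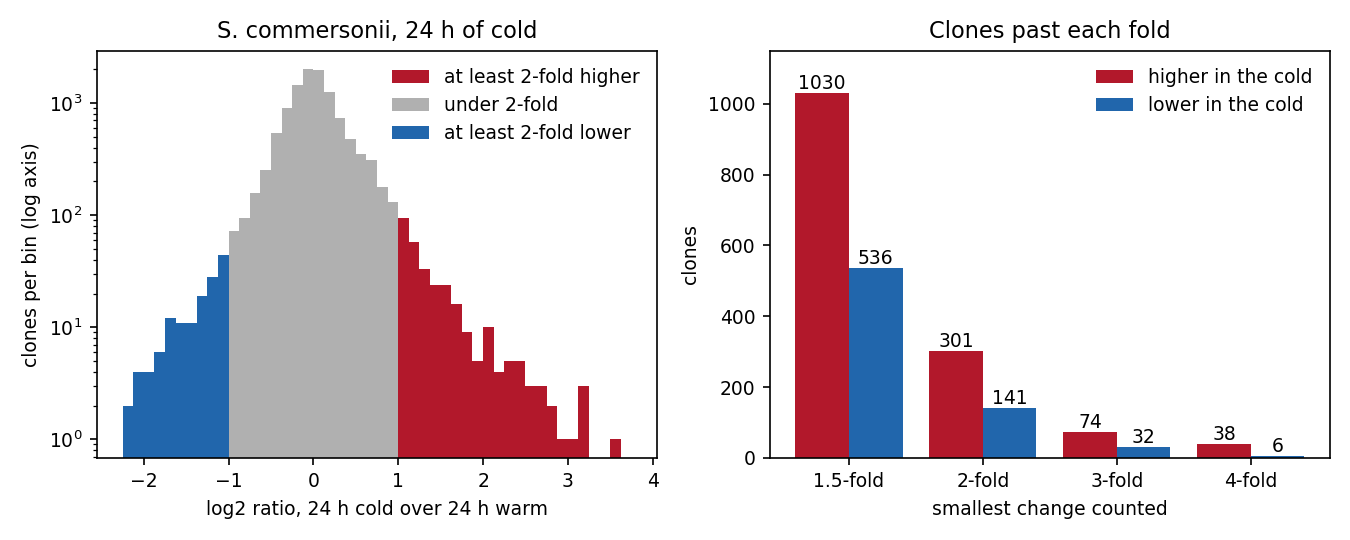
Left, histogram of the log2 ratios of 11366 clones in S. commersonii after 24 h of cold over 24 h in the warm (log axis for clones per bin); right, number of clones at least 1.5-, 2-, 3- and 4-fold higher or lower. The upper tail reaches 3.50 and the lower tail -2.18, and higher clones outnumber lower ones at each fold.

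The clones at either end of the column had different histories in the other columns. STMHO39 was the highest clone at 24 h. Its log2 ratios in S. commersonii were 1.90 (2 h), 3.50 (24 h) and 1.74 (7 d), a maximum at 24 h. In the cultivated potato they were 0.41, 4.30 and 2.84 at the same times, also with the maximum at 24 h, where it ranked as number 2 of the column. In the transgenic plants it was at -0.07 in S. commersonii and at -1.74 in the cultivated potato, so that the clone was not higher with AtCBF3 in either species. STMIX48 was next, with 0.35, 3.23 and 3.88 in S. commersonii at 2 h, 24 h and 7 d, and with 0.18, 2.99 and 2.96 in the cultivated potato. It was at 3.68 with 35S::AtCBF3 in S. commersonii and at 0.83 in the cultivated potato. This clone was thus close to its control at 2 h in both species, and 7.80- to 14.7-fold higher at the later times in both. The 3 clones at ranks 2 to 4 of the 24 h column stayed within 0.45 of each other in each of the 8 columns, a likeness noticed after the values were seen.

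The lowest clones also differed from each other. STMCS89 was at 0.64, -2.18 and -2.68 in S. commersonii at 2 h, 24 h and 7 d, and at 1.42, -1.80 and -2.39 in the cultivated potato. It was above its control at 2 h in both species and below it at the later times. In the transgenic plants it was at -1.34 in S. commersonii and at -1.08 in the cultivated potato. STMGQ22 was at -0.50, -2.17 and -2.41 in S. commersonii and at -0.73, -0.71 and -0.97 in the cultivated potato. It was below its control in all 6 cold columns, but past 2-fold in the cold in S. commersonii alone, at 24 h and 7 d. With 35S::AtCBF3 it was at -1.14 in S. commersonii and at -1.11 in the cultivated potato.

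**Figure D2:**
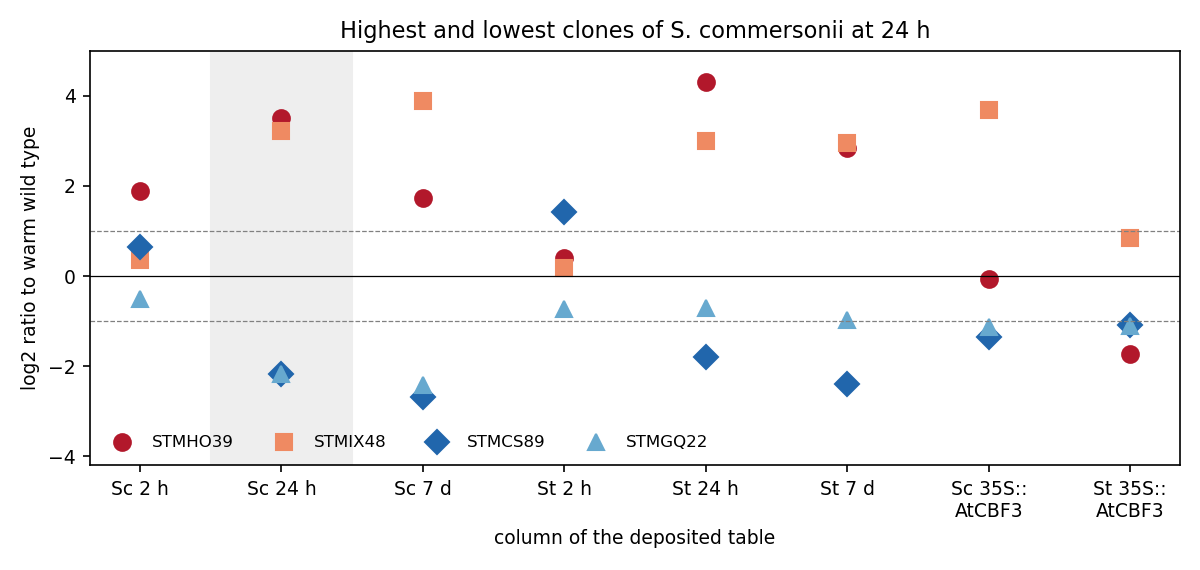
Log2 ratios of the 2 highest and 2 lowest clones of the S. commersonii 24 h column (shaded) in all 8 columns (Sc, S. commersonii; St, S. tuberosum), 1 combined value per point; dashed lines mark 2-fold. STMHO39 and STMIX48 separate in the 35S::AtCBF3 columns, at -0.07 and 3.68 in S. commersonii.

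The next comparison was with 2 h of cold in the same species, which has its own 2 h warm control and was taken later in the day. Of the 301 clones higher at 24 h, 125 were also higher at 2 h (41.5%), where 10.9% of all clones were higher. These 125 were 10.1% of the 1241 clones higher at 2 h. At 1.5-fold, 58.3% of the clones higher at 24 h were higher at 2 h (14.2% of all clones), and at 3-fold 16.2% were (7.94% of all clones). Of the clones higher at 2 h, 37.2% were higher at 24 h at 1.5-fold (9.06% of all clones), and 1.33% at 3-fold (0.651% of all clones). The other 176 clones (58.5%) had not passed 2-fold at 2 h, and 144 of them were under 1.5-fold. The median of the 301 clones was 1.25 at 24 h and 0.61 at 2 h, with quartiles of 0.18 and 2.71 at 2 h: the list held clones near their control and clones far above it at the earlier time. Among clones 2- to 3-fold higher at 24 h, 103 of 227 were higher at 2 h (45.4%). The numbers were 8 of 36 (22.2%) at 3- to 4-fold and 14 of 38 (36.8%) from 4-fold up.

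Read from the 2 h column, the median at 24 h was higher in each successive set of clones with a larger early response. Clones between 2-fold and 4-fold higher at 2 h had medians of 0.30 at 24 h and 1.5 at 2 h, over 577 clones. For the 568 clones between 4-fold and 8-fold at 2 h, the medians were 0.65 at 24 h and 2.45 at 2 h. For the 96 clones at least 8-fold higher at 2 h, they were 1.05 and 3.17. At 24 h, 2.65% of all clones were 2-fold higher. Among the 96 clones, 55 (57.3%) were still 2-fold higher, against 38 of 568 (6.69%) and 32 of 577 (5.55%) in the sets below. The share did not follow the size of the early response throughout, since 32 of the 376 clones between 1.5-fold and 2-fold higher at 2 h (8.51%) were 2-fold higher at 24 h. Most of these early clones were still above 0: 95 of 96, 567 of 568 and 508 of 577, beside 5742 of all 11366 clones.

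Few clones were lower at 2 h (17 of all 11366), which limits how many of the clones lower at 24 h could be among them. Of the 141 clones lower at 24 h, 2 were also lower at 2 h (1.42%), where 0.150% of all clones were lower. These 2 were 11.8% of the 17 clones lower at 2 h, and 1.24% of all clones were lower at 24 h. At 2 h, 134 of the 141 (95.0%) were under 1.5-fold lower, but only 0.783% of all clones were at least 1.5-fold lower then. Their median was -1.25 at 24 h and -0.12 at 2 h. All 141 were farther below their control at 24 h than at 2 h, although the choice of clones on the 24 h column favours this order. Of the 141 clones, 4 had been higher at 2 h (2.84%), fewer than the 10.9% of all clones that were higher then. Their values ran from -1.37 to -1.20 at 24 h and from 1.39 to 1.98 at 2 h. No clone was higher at 24 h after being lower at 2 h, which is close to the 0.150% of all clones lower at 2 h.

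Over all clones, 12.6% stood at least 2-fold apart at 24 h and 2 h in S. commersonii: 170 clones were higher at 24 h and 1263 (11.1%) were lower. The 170 clones had medians of 1.27 at 24 h and -0.01 at 2 h. Of these, 118 were 2-fold higher than their control at 24 h, where 2.65% of all clones were. The 1263 clones had medians of 0.45 at 24 h and 2.03 at 2 h, and 1067 of them belonged to the clones higher at 2 h (10.9% of all clones). Both sets were chosen on this difference, which favours large values in the column with the wider spread. That is the 2 h column, with a standard deviation over clones of 0.72, against 0.44 at 24 h. Each time was set against its own control, so that a change of the warm leaves between the harvests is part of these differences.

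**Figure D3:**
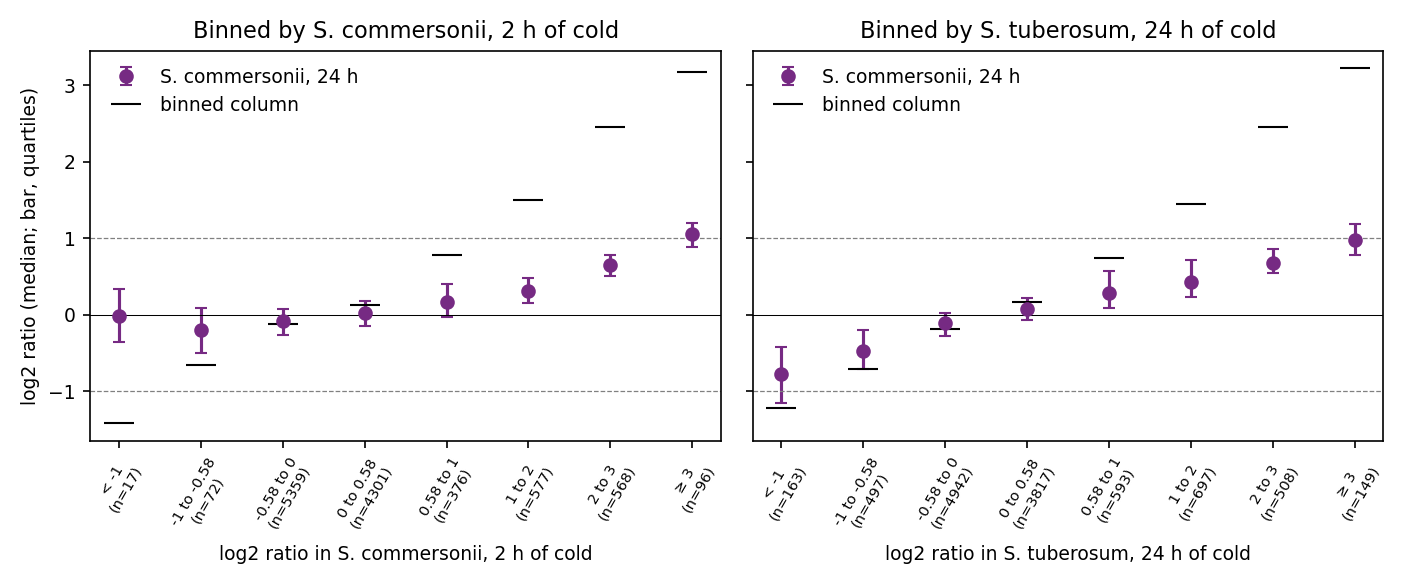
Median and quartiles of the S. commersonii 24 h log2 ratio (points and bars) for clones binned by their log2 ratio in S. commersonii at 2 h (left) and in the cultivated potato at 24 h (right), with the median of the binned column as a black dash and the number of clones under each bin. The 24 h median climbs to 1.05 in the highest bin of the 2 h column and to 0.98 in the highest bin of the cultivated potato, far below the dashes at 3.17 and 3.22; the lowest bin of the 2 h column holds 17 clones.

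The second comparison asked how the freezing-tolerant species at 24 h stood beside the cultivated one at the same time, with separate plants and controls. Higher clones were largely shared in direction. Of the 301 clones higher in S. commersonii, 240 were higher in the cultivated potato (79.7%), where 11.9% of all clones were higher, and 299 were above 0. The 2 h column of the cultivated potato gave a smaller share, with 125 of the 301 clones higher there (41.5%, beside 7.87% of all clones). The 240 clones were 17.7% of the 1354 clones higher in the cultivated potato. The shared part was 170 of 227 (74.9%) for clones 2- to 3-fold higher in S. commersonii, 34 of 36 (94.4%) at 3- to 4-fold and 36 of 38 (94.7%) from 4-fold up. Of the 141 lower clones, 59 were lower in the cultivated potato as well (41.8%), where 1.43% of all clones were lower, and these were 36.2% of the 163 clones lower in that species. The share of the lower clones was 54.9% at 1.5-fold (5.81% of all clones) and 9.38% at 3-fold (0.238% of all clones). At 2 h in the cultivated potato, 9 of the 141 were lower (6.38%, beside 0.334% of all clones). No clone was higher in S. commersonii and lower in the cultivated potato, where 1.43% of all clones were lower. Of the 141 lower clones, 3 were higher in the cultivated potato (2.13%), where 11.9% of all clones were higher.

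The 163 clones lower in the cultivated potato had a median of -0.78 in S. commersonii, against -1.22 in the cultivated potato. The 697 clones 2- to 4-fold higher in the cultivated potato had a median of 0.42 in S. commersonii, against 1.44 in the cultivated potato. The 149 clones at least 8-fold higher in the cultivated potato had a median of 0.98 in S. commersonii, against 3.22 in the cultivated potato. Of these, 68 (45.6%) were 2-fold higher in S. commersonii, where 2.65% of all clones were. Every one of these 149 was above 0 in S. commersonii, beside 5742 of all 11366 clones. These clones were chosen on the cultivated potato's column, which favours larger values there.

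The clones high in the cultivated potato lay on separate arms, best seen from 4-fold up, when split by the 2 h call in S. commersonii, a split made after the plot of clones in both species had been seen. Among clones between 4-fold and 8-fold higher in the cultivated potato at 24 h, the 470 that had been higher at 2 h in S. commersonii had a median of 0.66 in S. commersonii, against 2.45 in the cultivated potato. The 38 that had not been higher at 2 h had medians of 1.67 and 2.33. In the first set 46 clones (9.79%) were 2-fold higher in S. commersonii at 24 h, and in the second 33 (86.8%), beside 2.65% of all clones. The quartiles did not overlap, at 0.54 and 0.80 in the first set and 1.28 and 2.08 in the second. Between 2-fold and 4-fold in the cultivated potato, the S. commersonii medians were 0.38 over 431 early clones and 0.70 over 266 others, and the quartiles overlapped, at 0.24 and 0.52 for the early clones and 0.21 and 1.07 for the others. From 8-fold up they were 0.96 over 138 early clones and 2.21 over 11 others, a small set. Clones of like size in the cultivated potato thus had unlike medians in S. commersonii, lower for clones that had been higher at 2 h.

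**Figure D4:**
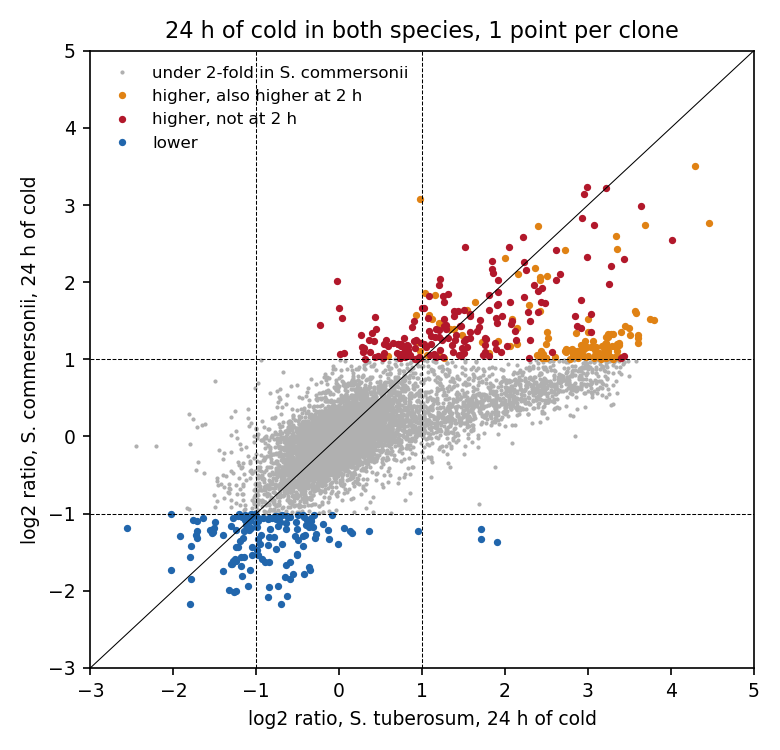
Log2 ratio of each of 11366 clones at 24 h of cold in S. commersonii (vertical axis) and the cultivated potato (horizontal axis); dashed lines mark 2-fold and the diagonal marks equal ratios. Clones higher in S. commersonii that were also higher at 2 h (orange) gather near the 2-fold line where the ratio in the cultivated potato is around 3, while those not higher at 2 h (red) lie nearer the diagonal.

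At 24 h, 64 clones (0.563%) had S. commersonii ratios that exceeded those of the cultivated potato by 2-fold or more, and 1039 (9.14%) had ratios lower by as much. The 64 clones had a median of 0.24 in S. commersonii, against -1.01 in the cultivated potato. Among the 301 higher clones (2.65% of all clones) were 9 of the 64. By their medians, the 64 clones lay below their control in the cultivated potato and near it in S. commersonii. The choice of clones on this difference favours large values in the column with the wider spread. That is the column of the cultivated potato, with a standard deviation over clones of 0.80, against 0.44 in S. commersonii. The 1039 clones had a median of 0.55 in S. commersonii, against 2.16 in the cultivated potato. Of these, 980 were higher in the cultivated potato, where 11.9% of all clones were. Of the 1039, 891 had been higher at 2 h in S. commersonii, where 10.9% of all clones were. Early clones were also the larger part of all 1354 clones higher in the cultivated potato, where 315 had not been higher at 2 h in S. commersonii.

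Placing each changed clone by its call at 2 h and by its call in the cultivated potato at 24 h gave 3 large classes of higher clones and 2 of lower clones. The early class held 120 clones, higher at 2 h and in both species at 24 h. Its medians in S. commersonii were 2.95 (2 h), 1.18 (24 h) and 0.38 (7 d). In the cultivated potato they were 1.91, 2.96 and 0.21. The class was chosen on the 2 h column of S. commersonii and on the 24 h columns of both species, which favours high values in those columns.

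The class that appeared by 24 h in both species also held 120 clones, not higher at 2 h in S. commersonii. Its medians in S. commersonii were 0.30 (2 h), 1.48 (24 h) and 0.89 (7 d). In the cultivated potato they were 0.12, 1.79 and 1.04. The choice of these clones at 24 h in both species favours the highest median at that time. Their choice as not higher at 2 h keeps their 2 h values in S. commersonii under 2-fold. The 7 d column of the cultivated potato shares its warm control with the 24 h column used for the classes, so no class is counted there. Among all 301 clones higher in S. commersonii, a list chosen without the cultivated potato, 96 were 2-fold higher in the cultivated potato at 7 d (31.9%), where 4.04% of all clones were.

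A class of 56 clones was higher in S. commersonii at 24 h but neither at 2 h nor in the cultivated potato at 24 h. Its medians were 1.15 in S. commersonii and 0.72 in the cultivated potato at 24 h, so that most of these clones lay above their control in the cultivated potato too, short of 2-fold. Of all 301 higher clones, 21 were under 1.5-fold both at 2 h and in the cultivated potato. The remaining 5 higher clones had also been higher at 2 h but not in the cultivated potato at 24 h.

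Lower clones divided into 59 that were lower in both species at 24 h but not at 2 h in S. commersonii, and 80 that were lower in neither of the other columns. The other 2 were those already lower at 2 h, and they were not lower in the cultivated potato at 24 h. The 59 clones had medians of -0.07, -1.28 and -1.54 in S. commersonii at 2 h, 24 h and 7 d, and of -0.24, -1.25 and -1.54 in the cultivated potato. The 80 clones had medians of -0.13, -1.22 and -1.38 in S. commersonii, and of -0.28, -0.61 and -0.90 in the cultivated potato. The 59 clones were low in the cultivated potato at 24 h by choice, and the median of the 80 clones was below 0 there too, by less than 2-fold. Of all 141 clones lower in S. commersonii, 73 were 2-fold lower in the cultivated potato at 7 d (51.8%), where 6.42% of all clones were.

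**Figure D5:**
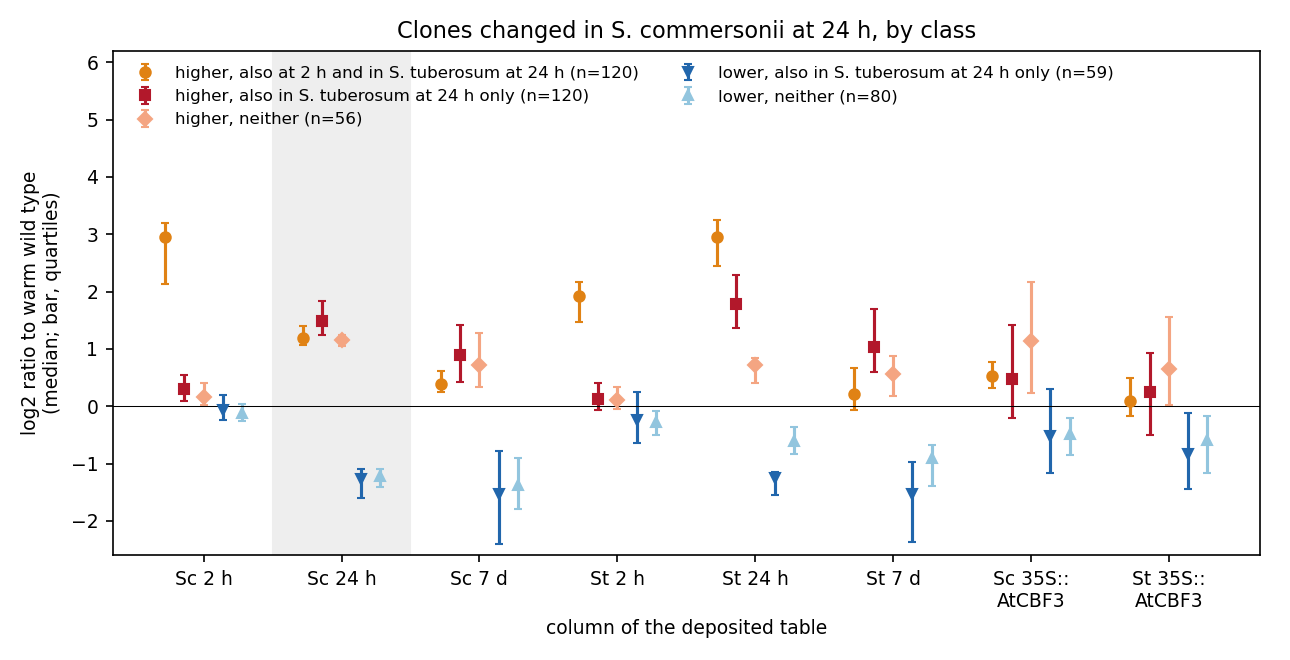
Median and quartiles of the log2 ratio in all 8 columns (Sc, S. commersonii; St, S. tuberosum) for 5 classes of clones changed in S. commersonii at 24 h (shaded). The early class (orange) is at 2.95, 1.18 and 0.38 over time in S. commersonii and at 1.91, 2.96 and 0.21 in the cultivated potato. The medians of the other classes lie between -0.28 and 0.30 at 2 h in both. The call at 2 h in S. commersonii was part of the choice of each class, which favours this contrast there.

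The 7 d column of S. commersonii used the same 24 h warm control as the 24 h column, and its plants were older than that control. Errors of the control move both columns alike, so the values are given side by side with no count of shared clones. The 301 clones higher at 24 h had a median of 1.25 at 24 h and of 0.56 at 7 d, with quartiles of 0.28 and 1.18 at 7 d. The 141 lower clones had a median of -1.25 at 24 h and of -1.44 at 7 d, with quartiles of -1.92 and -0.83 at 7 d. Where both columns rest on the same control RNA, it cancels in the difference between the times. By that difference, 490 clones (4.31%) were at least 2-fold higher at 24 h than at 7 d, and 251 (2.21%) at least 2-fold lower. The 490 clones had medians of -0.04 at 24 h and -1.37 at 7 d. The 251 clones had medians of -0.15 at 24 h and 1.08 at 7 d. By their medians, both sets lay near the control at 24 h. The choice of clones on this difference favours large values in the column with the wider spread. That is the 7 d column, with a standard deviation over clones of 0.60, against 0.44 at 24 h.

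The last comparison set the 24 h clones beside plants with AtCBF3 in the warm. Whether the wild-type S. commersonii RNA of that column was shared with the cold experiment is not stated, so no shared count is given for it. In the S. commersonii 35S::AtCBF3 column the 301 higher clones had a median of 0.58, with quartiles of 0.15 and 1.38. The 141 lower clones had a median of -0.49, with quartiles of -0.99 and -0.08. The median of all clones in that column was 0.009. The column of the cultivated potato with 35S::AtCBF3 shares no plants with the column described here. It was combined from 2 slides, against 3 for the S. commersonii 24 h column. Its standard deviation over clones was 0.79, against 0.44. There, 70 of the 301 higher clones were higher (23.3%) and 27 lower (8.97%), where 6.99% of all clones were higher and 7.28% lower. Of the 141 lower clones, 52 were lower (36.9%) and 13 higher (9.22%).

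The classes were chosen partly on the 24 h column of the cultivated potato. Whether its wild-type RNA was shared with the 35S::AtCBF3 column of that species is not stated, so classes are given by medians only. The 56 clones higher in neither of the other columns had medians of 1.13 with 35S::AtCBF3 in S. commersonii and 0.66 in the cultivated potato. The early class had medians of 0.53 and 0.09. The class that appeared by 24 h in both species had medians of 0.48 and 0.26. Among the lower classes, the 59 clones had medians of -0.51 and -0.84, and the 80 clones of -0.49 and -0.59. With 1 value per column, these differences between classes were not tested.

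Across all 11366 clones the 24 h values of S. commersonii correlated with the cultivated potato at 24 h (Pearson's r = 0.70, Spearman's rho = 0.69), with its 2 h column (0.49 and 0.43), with the 2 h column of S. commersonii (0.49 and 0.41), with the cultivated potato at 7 d (0.40 and 0.30) and with the cultivated potato carrying 35S::AtCBF3 (0.19 and 0.15). Over the 10924 clones under 2-fold at 24 h, r was 0.67, 0.51, 0.51, 0.29 and 0.15 in the same order. These correlations describe clones that share an array design and a method of labelling, and clones are not replicates.

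The higher and lower clones were spread over the array's clone names. The names form 157 blocks of 36 to 92 clones that share their first 5 characters, and 118 blocks held at least 1 higher clone and 85 at least 1 lower clone. No block held more than 8 higher or 4 lower clones. Block medians ran from -0.24 to 0.18, and what the clones of a block share was not tested.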

How the data were processed

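Leaf RNA of cold or transgenic plants was dyed (Cy3 or Cy5, aminoallyl coupling) and set against warm wild-type RNA on each slide, per the labels' protocols. The authors deposited 1 log2 ratio per clone and sample, made from 3 slides in the 24 h column, and used limma, per the submitters' processing notes. The log base was taken from limma's scale, and how slides were corrected, normalized, filtered and combined is not given in the sources used here. With 3 slides the dye orientations cannot be balanced. No clone was left out, and no sample column was unmapped.

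Counts of clones at least 2-fold higher or lower, ranks, medians and quartiles were computed with Python 3.11.15, numpy 2.4.6 and pandas 2.3.3. Counting was tested on simulated data. No statistical test was made, since each column holds 1 value per clone. The results were recomputed at 1.5-fold and 3-fold, after centring of the columns, after scaling to a common spread, and with block medians subtracted. The named clones are the 2 highest and 2 lowest at 24 h; by that limit no other clone is named, also where a count is small. The column, the comparisons and the lists were chosen with earlier results of these data known. The gene lists planned were not run, as no clone was paired with a gene. Spot brightness was not used here; precision is limited by having 3 slides.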

Additional observations from a re-analysis of the deposited data

Results flagged for a closer look

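A set of 3 clones had opposite calls in the 2 species after 24 h of cold: lower in S. commersonii, from -1.37 to -1.20, and higher in the cultivated potato, from 1.71 to 1.90. In S. commersonii the same clones were at 1.39 to 1.46 at 2 h and at -1.92 to -1.27 at 7 d, and in the cultivated potato at 0.86 to 1.18 at 2 h and at -1.01 to -0.82 at 7 d. They are 3 of the 4 clones that were lower at 24 h after being higher at 2 h in S. commersonii. The 3 clones are 2.13% of the 141 lower clones, where 11.9% of all clones were higher in the cultivated potato. The 4 clones are 2.84% of the 141, where 10.9% of all clones were higher at 2 h. With a single value per clone in each column, this difference is untested.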

How the results depend on the processing

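No paired analysis was possible because each column holds 1 combined value per clone, and for the same reason no slide was left out; averaging the clones of a gene was not run. At 1.5-fold, S. commersonii had 1030 higher and 536 lower clones at 24 h, 601 were also higher at 2 h, 856 also higher and 294 also lower in the cultivated potato, and 154 higher in neither. At 3-fold these numbers were 74 and 32, 12, 56 and 3, and 16. Scaling of all columns to a common spread gave 482 and 236, 266, 364 and 62, and 93. The share of the higher clones that were also higher at 2 h was 58.3%, 16.2% and 55.2% under these 3 settings, against 41.5% at 2-fold. The share of lower clones also lower in the cultivated potato was 54.9%, 9.38% and 26.3%, against 41.8%. The share also higher in the cultivated potato stayed between 75.5% and 83.1%, and higher clones were between 65.8% and 69.8% of the changed clones. S. commersonii stood above the cultivated potato for 336 clones at 1.5-fold and 17 at 3-fold, and below for 1613 and 542. The 24 h value stood above that of 2 h for 530 and 46 clones (283 with scaling) and below for 1950 and 635, and above that of 7 d for 1552 and 148 and below for 880 and 36. Each order of higher and lower counts named here was kept under these settings. A higher or lower threshold leaves fewer or more clones past it by construction. For scaling, the S. commersonii 24 h column has a smaller central spread (0.29) than most columns and is stretched. Why the shares moved was not tested. With columns centred on their medians, each of these counts stayed within 1.5 times its value. With block medians subtracted, a setting chosen after seeing the data, 294 clones were higher, 277 of them among the 301, and 130 lower, 126 of them among the 141. The differences between times were also added after the values were seen.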
